A study of Mus musculus with 6 samples.

Results

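The heme biosynthesis enzymes were described here across 6 RNA sequencing libraries of mouse articular cartilage. The 8 genes Alas1, Alas2, Alad, Uros, Urod, Cpox, Ppox and Fech were found by name among the 33971 genes of the deposited table, and each name had 1 row. The libraries came from wild-type mice, 3 from cartilage at 2 months and 3 from cartilage at 18 months, and the comparison of the ages asks how gene expression in cartilage changes with age. The study's methods name male mice, do not describe how cartilage was cut for the RNA and state that experiments used independent samples, but neither they nor the labels say which animals the replicates came from. The p-values measure the spread between these samples.

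Heme is made in a pathway that starts in the mitochondrion, passes through the cytosol and ends in the mitochondrion, where iron is put into protoporphyrin. The entry step, the joining of glycine and succinyl-CoA to 5-aminolevulinate, is run by either of 2 enzymes from separate genes. Alas1 is the housekeeping form, present in most cells and held down by heme itself, whereas Alas2 is the erythroid form, which red cell precursors use for hemoglobin. The later enzymes are shared by all cells, and erythroid cells raise them as they mature.

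The libraries held 48171507 to 59085179 counts, and their labels gave the tissue as cartilage. Summed FPKM of 14 chondrocyte markers ranged from 11215 to 13304 at 2 months and from 338 to 1593 at 18 months. Erythroid markers, 12 genes that included none of the 8 enzymes, summed to 2.33 to 157 and to 681 to 765 FPKM, and neutrophil markers to 10.0 to 4168 and 42811 to 47767 FPKM. The highest of the 2-month values for both of these blood cell lists was that of 2-month replicate 2, which stood apart from the other young libraries. Tests of the enzymes and of several lists are therefore given with and without it, and some marker lists are given as summed FPKM alone. It was picked out by its high erythroid and neutrophil sums. More calls or larger differences of such genes without it, Alas2 included, thus follow in part from that choice. The female-specific transcript Xist had 88239 to 102417 counts at 2 months and 11 to 30 at 18 months, which goes against libraries all from male mice, and sex and age cannot be told apart.

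Iron links heme synthesis to translation through the iron-responsive element, a short hairpin in the RNA that is bound by iron regulatory proteins when iron is scarce. Among the 8 enzymes, only the annotated 5′ untranslated region of Alas2 held such a hairpin, by a search for the letter C, 5 bases, the loop CAGTGN and 5 bases able to pair with the first 5, with G-U pairs allowed. The same pattern was found in 31 of 20580 genes (0.151%) of GENCODE M21, on the GRCm38 build. The Alas2 element lies in an exon at chrX:150547460-150547484 on the plus strand. It is shown with the elements of Fth1 (ferritin heavy chain, chr19:9982734-9982758, plus strand), Ftl1 (ferritin light chain, chr7:45459781-45459805, minus strand) and Slc40a1 (the iron exporter ferroportin, chr1:45925467-45925491, minus strand), because these are iron-handling transcripts whose levels are given further on. All are written 5′ to 3′ with the loop in capitals.
Alas2: ggttcgtcctCAGTGCagggcaaca
Fth1: cctgcttcaaCAGTGCttgaacgga
Ftl1: cttgcttcaaCAGTGTttgaacgga
Slc40a1: acttcagctaCAGTGTtagctaagt

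Erythroid genes are switched on by the transcription factor Gata1, which binds letters such as AGATAA. The 250 bases before each RefSeq start (GRCm38.p6) were searched on both strands for the letters GATA with A or T before them and A or G after, which 8718 of 32851 windows of this length held (26.5%). A total of 10 windows matched 7 of the enzymes, and Fech had no entry in the table. Alas2 held 1 match, Cpox 2 that shared a base, and the second of the Uros windows 2, whereas the windows of Alas1, Alad, Urod and Ppox and the first of Uros held 0. The letters CACCC, bound by Klf1, stood in 17087 of 32851 windows (52.0%), with 3 matches in Alas2, 4 in Cpox, 1 in each of the Alas1 windows, 1 in the second Alad window and 0 in the others. The stretches of Alas2 (chrX:150547167-150547374, plus strand) and Cpox (chr16:58669958-58670207, plus strand) outside annotated exons are shown because they hold the GATA matches of the erythroid entry enzyme and of a shared later enzyme. These GATA matches alone are in capitals, and they appear on these strands as the reverse complement of the letters searched. The CACCC matches of the Alas2 window lie in exon bases that are not shown, and those of Cpox are left in lower case. The Alas2 GATA match begins 86 bases before the RefSeq start. A match of letters is a description of the window and not a measured binding site.
Alas2: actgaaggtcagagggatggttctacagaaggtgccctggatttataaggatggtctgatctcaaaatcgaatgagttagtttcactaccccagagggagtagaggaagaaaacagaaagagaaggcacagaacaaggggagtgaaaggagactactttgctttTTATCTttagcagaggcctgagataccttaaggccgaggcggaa
Cpox: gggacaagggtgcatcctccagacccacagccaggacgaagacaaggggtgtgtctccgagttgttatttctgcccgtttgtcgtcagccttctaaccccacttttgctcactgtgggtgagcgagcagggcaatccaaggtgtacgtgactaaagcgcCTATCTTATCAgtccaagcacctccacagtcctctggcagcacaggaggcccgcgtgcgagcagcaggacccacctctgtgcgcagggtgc

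All 8 enzymes were higher in every 18-month library than in every 2-month library. In edgeR's quasi-likelihood test on the counts, 7 of the 8 were called higher at 18 months and 0 lower, where a call needs a Benjamini-Hochberg adjusted p below 0.05 over 20397 genes and a log2 fold change above 1 or below −1. Of all genes tested, 14.9% were called higher and 21.3% lower, and 35.6% were higher in every 18-month library. The median log2 fold change of the 8 enzymes was 2.19, with a range of 1.36 to 3.70, against −0.02 over all genes tested. The gene that was not called was Alas2, which had the largest fold change of the 8. Without 2-month replicate 2, all 8 were called higher, against 23.3% of all genes tested. In whole tissue, fewer cells of a type and less RNA per cell cannot be told apart, and the part of the blood cell and chondrocyte markers in these differences was not tested.

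**Figure D1:**
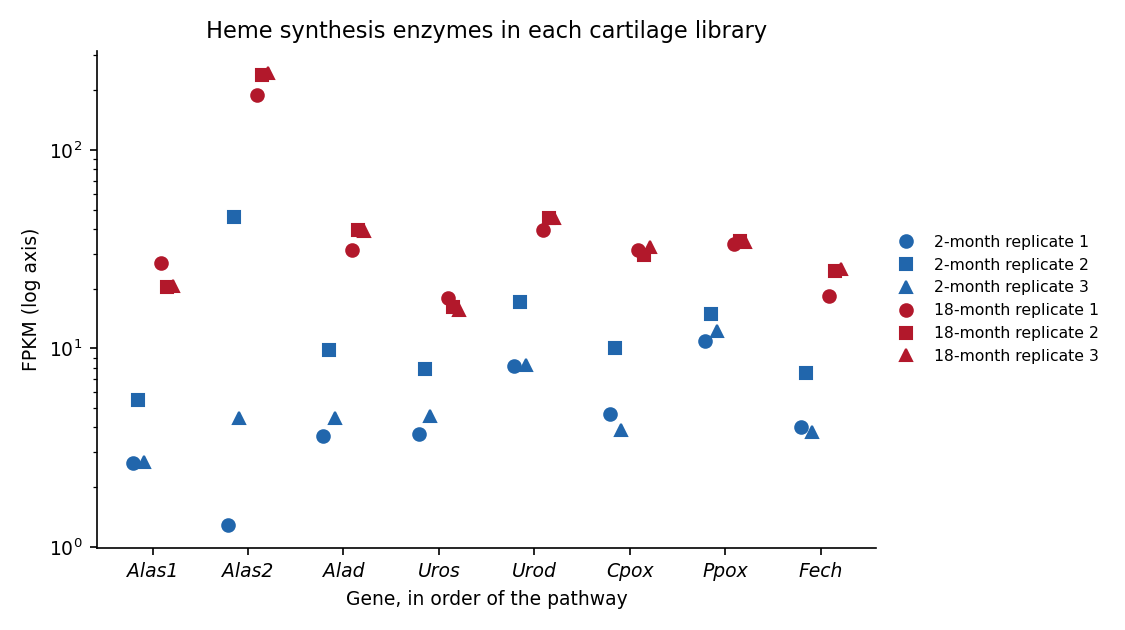
FPKM of each enzyme on a log axis, with genes in the order of the pathway. Each point is 1 library, blue for 2 months and red for 18 months, and the shape gives the replicate. Alas2 spans 1.29 to 45.9 FPKM among the blue points, the widest spread of the 8 genes, and the red points lie above the blue ones for every gene.

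Alas2, the erythroid entry enzyme (X chromosome, 150547375 to 150570638, plus strand), had 1.29, 45.9 and 4.44 FPKM in 2-month replicates 1, 2 and 3. It had 189, 240 and 243 FPKM in 18-month replicates 1, 2 and 3. The old libraries lay close together, whereas the young ones were spread from the lowest level of any of the 8 enzymes to within the range that the enzymes had in the aged libraries. The counts behind these values were 171, 6462 and 601 at 2 months and 30455, 36255 and 37277 at 18 months, so counting error was small beside the spread. The means were 17.2 ± 24.9 and 224 ± 30.7 FPKM (SD, n = 3 each), a 13.0-fold difference of means.

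The log2 fold change of Alas2 was 3.70 (SE 1.29) with an adjusted p of 0.0558 in edgeR's quasi-likelihood test. Leaving out 2-month replicate 2 gave 6.18 (SE 0.67, adjusted p 0.00079), and leaving out 2-month replicate 3 gave the highest adjusted p of the alternatives, 0.138. DESeq2 on the same counts gave 3.77 with an adjusted p of 0.00080, and limma on log2(FPKM + 0.1) gave 5.07 with an adjusted p of 0.0139. The shares of all genes called higher in these fits were 19.6% with DESeq2 and 20.3% with limma. The call thus turned on the young libraries and on the method, while the direction was the same in all 15 alternatives, of which 6 called it. Even the young library with the most Alas2 lay below the aged ones, whose mean was 4.87 times its level.

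Alas1, the housekeeping entry enzyme (chromosome 9, 106233455 to 106248654, minus strand), had 2.64, 5.48 and 2.67 FPKM in 2-month replicates 1, 2 and 3. It had 26.9, 20.5 and 20.5 FPKM in 18-month replicates 1, 2 and 3. The ages were well separated, and 18-month replicate 1 was the highest of the aged libraries for Alas1 but the lowest of them for Alas2. Means were 3.60 ± 1.63 and 22.6 ± 3.69 FPKM (SD, n = 3 each), 6.29-fold apart. The log2 fold change was 2.59 (SE 0.30, edgeR adjusted p 0.0020).

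The second step, the pairing of aminolevulinate molecules into porphobilinogen, is run in the cytosol by Alad (chromosome 4, 62509169 to 62519894, minus strand). It had 3.61, 9.79 and 4.48 FPKM in the 2-month libraries, in the order of replicates 1 to 3. In the 18-month libraries it had 31.3, 39.6 and 39.0 FPKM. Among the aged libraries replicate 1 was lowest, as for Alas2 and unlike Alas1, and the ages did not overlap. The log2 fold change was 2.57 (SE 0.38, edgeR adjusted p 0.0037), close to that of Alas1.

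In the cytosol, Uros closes the linear tetrapyrrole into a ring (chromosome 7, 133686243 to 133710072, minus strand). It had 3.69, 7.87 and 4.54 FPKM at 2 months and 18.0, 16.2 and 15.6 FPKM at 18 months, with a log2 fold change of 1.56 (SE 0.26, edgeR adjusted p 0.0051). Along with Alas1 it was highest in 18-month replicate 1 among the aged libraries. Urod, which trims the ring's side chains (chromosome 4, 116989965 to 116994413, minus strand), had 8.19, 17.1 and 8.25 FPKM at 2 months and 39.6, 45.6 and 45.2 FPKM at 18 months. Its log2 fold change was 1.90 (SE 0.29, edgeR adjusted p 0.0041), and it was among the most abundant of the shared enzymes at both ages.

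The last steps return to the mitochondrion. Cpox, which oxidises coproporphyrinogen in the intermembrane space (chromosome 16, 58670292 to 58717636, plus strand), had 4.65, 10.0 and 3.87 FPKM at 2 months and 31.5, 29.5 and 32.3 FPKM at 18 months. Its log2 fold change was 2.28 (SE 0.35, edgeR adjusted p 0.0041). The aged libraries were nearly level, and only 2-month replicate 2 stood above the other young ones.

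Ppox, the inner membrane enzyme that makes protoporphyrin (chromosome 1, 171275990 to 171281186, minus strand), had 10.9, 15.0 and 12.2 FPKM at 2 months and 33.4, 34.9 and 34.5 FPKM at 18 months. It was the steadiest of the 8 within each age and had the smallest fold change, 1.36 on the log2 scale (SE 0.12, edgeR adjusted p 0.0012). Fech, ferrochelatase, inserts the iron (chromosome 18, 64452914 to 64490251, minus strand). It had 4.0, 7.48 and 3.81 FPKM at 2 months and 18.4, 24.7 and 25.1 FPKM at 18 months, with a log2 fold change of 2.10 (SE 0.29, edgeR adjusted p 0.0031). Like Alas2, Alad, Urod and Ppox, Fech was lowest in replicate 1 among the aged libraries.

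The 7 enzymes other than Alas2 were called higher in all 15 alternatives, with adjusted p-values of at most 0.0257 and log2 fold changes of at least 1.01. That lowest value was for Ppox after rescaling FPKM to TPM, which gives each library the same total and moved the median of all genes tested to −0.33, so that Ppox lay further from the median than from 0. Coordinates of all the enzymes but Alad were identical in GENCODE M21. Apex2, a DNA repair gene on the other strand, spans the whole of Alas2, and had a mean of 300 counts at 2 months and 768 at 18 months. Alas2 had 171 counts in 2-month replicate 1, fewer than the 2-month mean of Apex2. Uros shares 740 bases with Bccip, and Ppox 907 bases with B4galt3, both on the other strand. Alas1 shares 695 bases with 4930500F10Rik, and Cpox 204 bases with Gpr15, also on the other strand. Gpr15 had a mean of 3 counts at 2 months and 92 at 18 months. The libraries were made to keep strand, but whether strand was used in counting is not stated, so reads in these shared stretches cannot be assigned with certainty. Alad, Urod and Fech overlap no other gene.

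**Figure D2:**
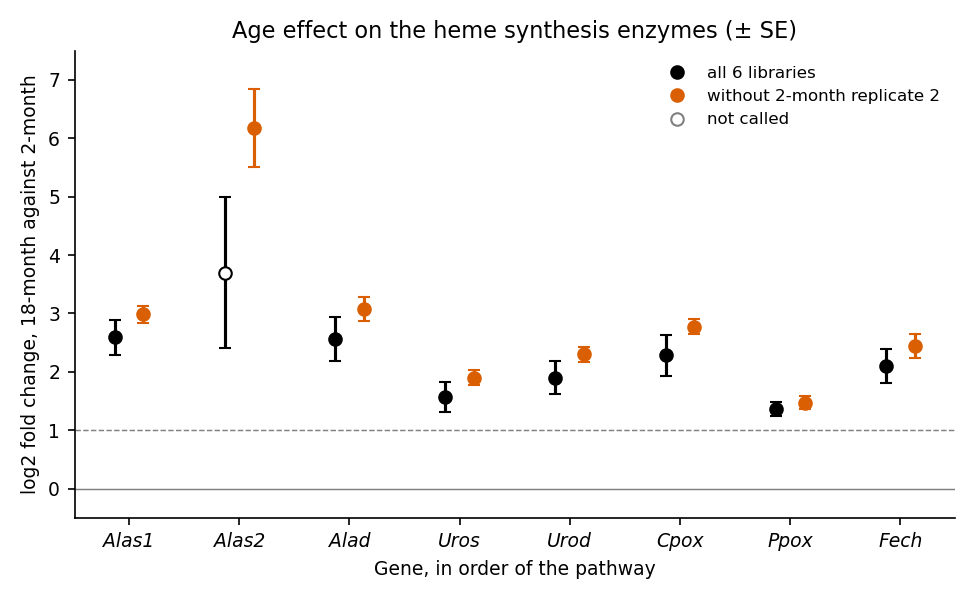
Log2 fold change of 18-month against 2-month cartilage for each enzyme, with bars of 1 SE, from edgeR with all 6 libraries (black) and without 2-month replicate 2 (orange). Open circles were not called, and the dashed line is the fold change limit of 1. Alas2 is the one open circle, at 3.70, and moves to 6.18 in orange, whereas Ppox stays near the dashed line.

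2-month replicate 2 was above the other young libraries for every enzyme, by unequal amounts. Relative to the mean of the other 2-month libraries, it was 16.1 times as high for Alas2. The same ratio was 2.42 for Alad, 2.35 for Cpox, 2.08 for Urod, 2.06 for Alas1, 1.91 for both Uros and Fech, and 1.30 for Ppox. So the enzymes shared by all cells differed little beside Alas2 within the young group. The erythroid marker sum of that library was 157 FPKM, against 2.33 and 4.29 in 2-month replicates 1 and 3, and its part in these values was not tested.

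FPKM is scaled by transcript length, so levels of different enzymes can be set side by side within a library. In 2-month replicate 1, Alas2 was the lowest of the 8 enzymes. In 2-month replicate 3 it was the fifth, and in 2-month replicate 2 and all 18-month libraries it was the highest. Alas2 made up 3.30%, 38.7% and 10.0% of the summed FPKM of the 8 enzymes in 2-month replicates 1, 2 and 3, and 48.6%, 53.2% and 53.4% in 18-month replicates 1, 2 and 3. The other 7 enzymes together summed to 37.7, 72.7 and 39.8 FPKM at 2 months and to 199, 211 and 212 FPKM at 18 months, and their ages did not overlap. At 2 months the order of the shared enzymes began with Ppox in replicates 1 and 3, and the means of Alad (5.96 ± 3.34), Uros (5.37 ± 2.21), Cpox (6.17 ± 3.34) and Fech (5.10 ± 2.07 FPKM, SD, n = 3) lay within each other's SD. At 18 months Urod (43.5 ± 3.33 FPKM) was followed by Alad (36.6 ± 4.63), Ppox (34.3 ± 0.751) and Cpox (31.1 ± 1.44), of which Alad and Ppox differed by less than the SD of Alad. Fech (22.7 ± 3.76) and Alas1 (22.6 ± 3.69) could not be separated, and Uros was lowest (16.6 ± 1.24 FPKM, SD, n = 3).

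The ratio of Alas2 to Alas1 in FPKM was 0.487, 8.38 and 1.66 in 2-month replicates 1, 2 and 3, and 7.01, 11.7 and 11.9 in 18-month replicates 1, 2 and 3. The housekeeping form was the more abundant of the pair only in 2-month replicate 1. The ages overlapped, since 2-month replicate 2 lay above 18-month replicate 1. On the log2 scale the ratio was higher at 18 months by 2.38 (SE 1.19), with p = 0.2 in a two-sided exact permutation test, where 0.1 is the smallest p that 3 libraries against 3 allow. Without 2-month replicate 1 the difference was 1.43, and without 2-month replicate 2 it was 3.44. As a share of the summed FPKM of both forms, Alas2 was 32.8%, 89.3% and 62.4% at 2 months and 87.5%, 92.1% and 92.2% at 18 months.

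Against the later enzymes, the Alas2 ratio was higher in every 18-month library than in every 2-month library for all 6 of them. The log2 ratio was higher at 18 months by 2.35 (SE 1.06) to Alad, 2.63 (SE 1.15) to Cpox and 2.88 (SE 1.21) to Fech. It was higher by 3.04 (SE 1.16) to Urod, 3.39 (SE 1.18) to Uros and 3.63 (SE 1.35) to Ppox. Each of these 6 tests gave p = 0.1 in the exact permutation test, the smallest possible, and an adjusted value of 0.117 over the 7 ratios, so none passed 0.05. The adjusted value for the ratio to Alas1 was 0.2. Leaving out 2-month replicate 2 widened these differences to between 3.32 (Alad) and 4.91 (Ppox), and leaving out 2-month replicate 1 narrowed them, for example to 1.64 for Cpox and 2.61 for Ppox. Taken the other way, Fech had 3.11, 0.163 and 0.859 times the FPKM of Alas2 in the 2-month libraries, and 0.0976, 0.103 and 0.103 times in the 18-month libraries.

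**Figure D3:**
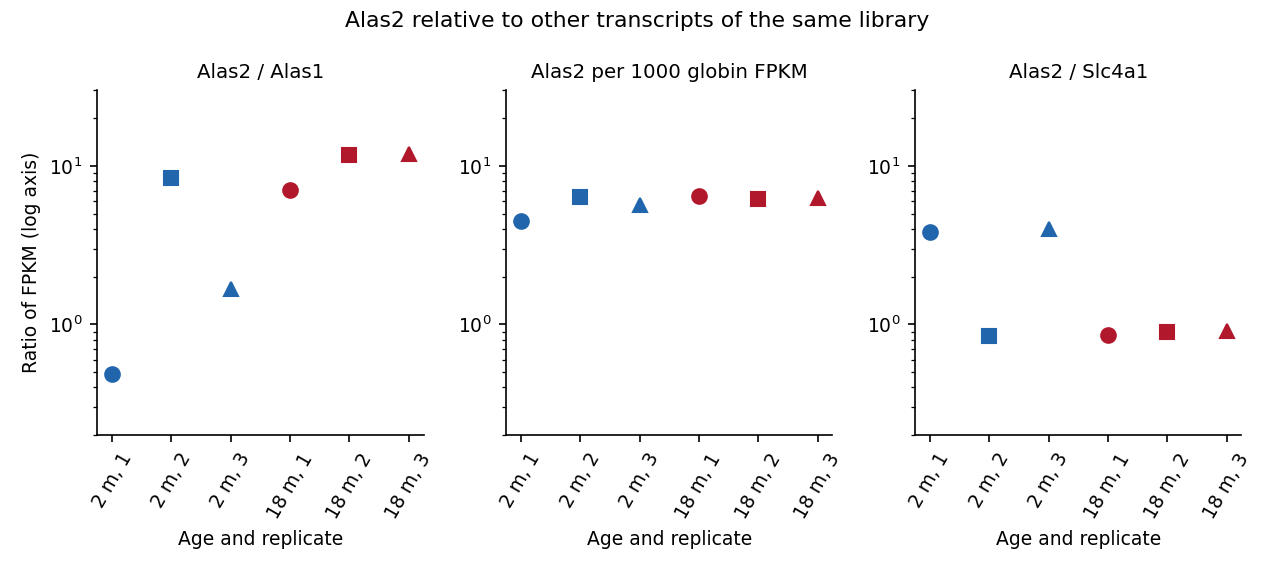
Ratio of Alas2 FPKM to Alas1 FPKM (left), Alas2 per 1000 FPKM of summed globin transcripts (middle) and Alas2 to Slc4a1 (right), with 1 point per library on a shared log axis. Blue is 2 months and red is 18 months. The left panel spreads from 0.487 to 11.9, the middle one stays between 4.50 and 6.43, and the right one runs from 4.01 down to 0.847.

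Hemoglobin is where most erythroid heme goes, so Alas2 was also set beside the alpha and beta globins. The summed FPKM of Hba-a1, Hba-a2, Hbb-bs and Hbb-bt was 286, 7235 and 781 at 2 months and 29304, 38923 and 38556 at 18 months, a 136-fold range. Alas2 per 1000 globin FPKM was 4.50, 6.35 and 5.68 at 2 months and 6.43, 6.16 and 6.31 at 18 months, a 1.43-fold range. Alas2 and globin transcripts thus kept nearly 1 proportion over libraries of both ages. The globin genes are near-identical copies in pairs, so their separate counts are uncertain and the sum was used.

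Set beside Slc4a1, a membrane protein transcript of red cell precursors, the proportion was less even. Slc4a1, the band 3 anion exchanger, had 0.338, 54.3 and 1.11 FPKM in 2-month replicates 1, 2 and 3 and 219, 268 and 268 FPKM in 18-month replicates 1, 2 and 3. Alas2 divided by Slc4a1 was 3.81, 0.847 and 4.01 at 2 months and 0.863, 0.894 and 0.908 at 18 months. 2-month replicate 2 lay with the aged libraries, and the other young libraries lay above them. The log2 ratio differed by −1.28 between the ages (SE 0.68, p = 0.4 in a two-sided exact permutation test), and the ages overlapped. Leaving out 2-month replicate 2 gave −1.96, leaving out 2-month replicate 3 gave −0.88, and log2(FPKM + 1) gave −0.81. With Epb42, a red cell membrane skeleton protein, in place of Slc4a1 the difference was −0.30 (exact permutation p = 0.9), so the unevenness depended on the transcript chosen. With the globins in place of Slc4a1 the difference was 0.16 (SE 0.117, exact permutation p = 0.3), in the other direction.

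The genes whose levels followed each entry enzyme most closely were found by Pearson's correlation of log2(FPKM + 0.1) over the 6 libraries, among 14018 genes. For Alas2 they included Pip5k1b (r = 0.9999), Hbb-bt (0.9999), BE692007 (0.9998) and Hbb-bs (0.9998). For Alas1 they were Actb (0.9998), Kctd20 (0.9998), Vsir (0.9997), Dnajc9 (0.9997) and Nadk (0.9997). So the genes nearest to the erythroid form included the beta globins, and the list of the housekeeping form held the cytoplasmic actin Actb. Hbb-bt and Hbb-bs are near-identical copies with uncertain separate counts, so they are not independent neighbours. The correlation of Alas2 with Alas1 was 0.9452, which ranked Alas1 at 2950 among the genes compared with Alas2. The later enzymes ranked from 1252 (Uros, r = 0.9802) to 3101 (Ppox, r = 0.9406), so the distance from Alas2 was not particular to Alas1. All these values rest on 6 points in 2 age groups that share their libraries.

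Around the pathway, 69 further genes of heme and iron biology were examined in 9 lists. Of these, 24 (34.8%) were called higher at 18 months and 8 (11.6%) lower in edgeR's test, against 14.9% and 21.3% of all genes tested. Without 2-month replicate 2 the number called higher was 40 (58.0%), against 23.3% of all genes. Without 2-month replicate 3 or 18-month replicate 3 it was 15 (21.7%). Calls over all genes, in either direction, also fell in the latter fits, from 7401 to 5640 and 5782. The median log2 fold change of the 69 genes was 0.999, against −0.02 over all genes. The shares of all genes, 14.9% higher and 21.3% lower, are the background for the counts of the single lists, where a count of 1 or 2 in a short list lies near it.

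**Figure D4:**
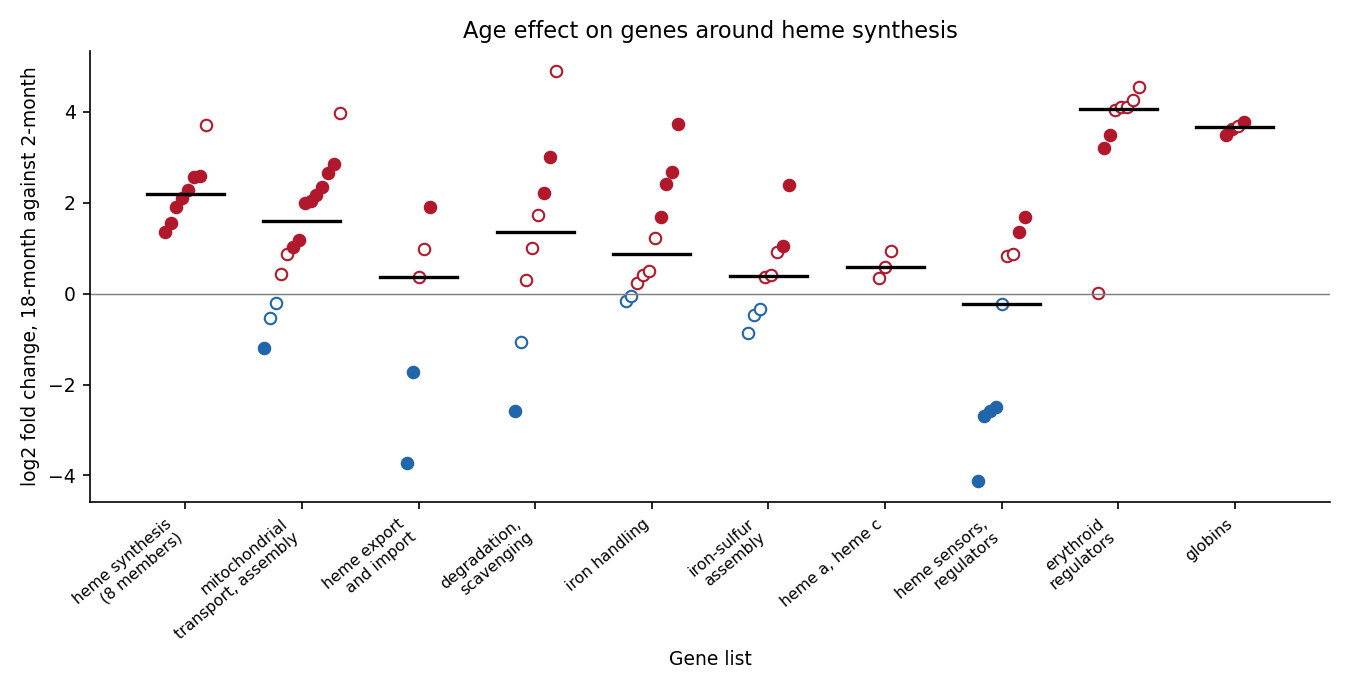
Log2 fold change of 18-month against 2-month cartilage for the 8 enzymes and for the genes of 9 related lists, 1 point per gene, from edgeR with all 6 libraries. Filled points were called and open points were not, red is above 0 and blue below, and the black line is the median of the list. Erythroid regulators lie mostly above 3 but open, and mitochondrial transport holds the largest number of filled red points among the related lists.

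Proteins that carry substrates and intermediates across the mitochondrial membranes or hold the enzymes together gave 8 higher (57.1%, against 14.9% of all genes) and 1 lower of 14, with a median log2 fold change of 1.59. The number called higher was 7 to 9 in the alternatives. Slc25a37 (mitoferrin 1, the iron importer of erythroid mitochondria) rose by 2.86 on the log2 scale (edgeR adjusted p 0.0088). Abcb10, which stabilises mitoferrin 1, rose by 2.66, and Tmem14c, which is needed for porphyrin import in erythroid cells, by 2.34. Slc25a38, the glycine carrier that feeds the entry step, rose by 1.19. The one gene called lower was Pgrmc1, a heme-binding partner of Fech, at −1.19. Clpx, a mitochondrial unfoldase that activates Alas, was also lower in every 18-month library, at −0.54 (edgeR adjusted p 0.0149), within the fold limit.

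Iron handling gave 4 higher (against 14.9% of all genes) and 0 lower of 10, with a median log2 fold change of 0.86. The called genes were Tfr2 (3.74), Slc40a1 (2.68), Ncoa4, the ferritin autophagy receptor (2.42), and Tfrc, the transferrin receptor (1.69, all log2 fold changes). Leaving out 2-month replicate 2 gave 5 calls (50.0%, against 23.3% of all genes). Leaving out 2-month replicate 1 gave 2, and leaving out any other single library gave 1. Calls over all genes, in either direction, also fell in those smaller counts' fits, from 7401 to between 5640 and 6771. The ferritins were not called, with log2 fold changes of −0.16 for Fth1 and 0.41 for Ftl1, so the transcripts whose iron-responsive elements are printed above ranged from near 0 to 3.70. Iron-sulfur cluster assembly, which Fech depends on for its cluster, gave 2 higher and 0 lower of 8, Glrx5 (2.40) and Hscb (1.05), near the share of all genes, and 1 to 3 in the alternatives. The enzymes that turn heme into heme a and attach heme to cytochrome c gave 0 of 3, with Cox10 at 0.60, Cox15 at 0.34 and Hccs at 0.94, and with Hccs called without 2-month replicate 2.

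Transporters of heme across the cell membrane and endosome gave 1 higher and 2 lower of 5, near the shares of all genes, and the number higher was 2 in 9 of the 15 alternatives. Abcg2, a porphyrin and heme exporter, rose by 1.92, whereas Flvcr2 fell by 3.72 and Slc46a1, an intestinal folate and heme carrier, fell by 1.72 on the log2 scale. Heme degradation and scavenging gave 2 higher and 1 lower of 8, near the shares of all genes, and 5 higher (62.5%, against 23.3% of all genes) without 2-month replicate 2. Hmox1, the inducible heme oxygenase, rose by 2.21 and Blvrb, a biliverdin reductase, by 3.00, and Lrp1, the receptor for heme bound to hemopexin, fell by 2.59. Hp, haptoglobin, had a log2 fold change of 4.89 but an edgeR adjusted p of 0.058.

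Heme sensors and regulators of Alas1 gave 2 higher (22.2%, against 14.9% of all genes) and 4 lower of 9 (44.4%, against 21.3%), and 4 of each without 2-month replicate 2. Eif2ak1, the heme-regulated kinase that slows globin translation when heme is short, rose by 1.69, and Bach1, a heme-binding repressor, by 1.36. The falls were in Nr1d1 (−4.12) and Nr1d2 (−2.69), the heme-binding nuclear receptors of the circadian clock, and in Ppargc1a (−2.58) and Foxo1 (−2.50), which are known to raise Alas1 in the liver. Alas1 itself was higher at 18 months. Ppargc1a was near the floor, at a mean of 0.136 and 0.0226 FPKM.

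Erythroid regulators gave 2 higher (25.0%, against 14.9% of all genes) and 0 lower of 8, with a median log2 fold change of 4.07. The number called higher was 7 (87.5%, against 23.3% of all genes) without 2-month replicate 2. It was 1 when 2-month replicate 1 was left out, and 0 when 2-month replicate 3 or any one 18-month library was. With all 6 libraries, DESeq2 called 5 (62.5%, against 19.6% of all genes) and limma on log2(FPKM + 0.1) called 7 (87.5%, against 20.3%). Lmo2 (3.49) and Zfpm1, the partner of Gata1 (3.19), were called. Gata1 had a log2 fold change of 4.26 with an edgeR adjusted p of 0.101, and Klf1 one of 4.11 with an adjusted p of 0.057. Both were thus in the position of Alas2, with a large difference and a wide spread at 2 months. Ldb1, a widely expressed member of the same complex, was at 0.01. The globins gave 3 higher of 4 (75.0%, against 14.9% of all genes), and the one that was not called, Hbb-bt, had an edgeR adjusted p of 0.0508. These calls rest on the uncertain separate counts of near-identical copies. In edgeR's test 4 were called without 2-month replicate 2 (100%, against 23.3% of all genes). The number was 0 without any other single library and 0 with no filter on low counts, so the globin calls were unstable in that test. With all 6 libraries, DESeq2 called 4 (100%, against 19.6% of all genes) and limma on log2(FPKM + 0.1) called 4 (100%, against 20.3%).

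The marker lists of other cell types varied as well. Klf1 and Tspo2 of the 12 erythroid markers also stand in the lists above. All 12 were higher in every 18-month library, against 35.6% of all genes tested. In edgeR's test 1 (8.33%, against 14.9% of all genes) was called higher with all libraries, and 12 (100%, against 23.3%) without 2-month replicate 2. That library was picked out by its sum on this same list, so the rise in calls follows in part from the choice. With all 6 libraries, DESeq2 called 10 (83.3%, against 19.6%) and limma on log2(FPKM + 0.1) called 12 (100%, against 20.3%). Of the 14 neutrophil markers, edgeR called 0 higher with all libraries (0%, against 14.9%) and 13 without 2-month replicate 2 (92.9%, against 23.3%). DESeq2 called 12 of them with all 6 libraries (85.7%, against 19.6%). Summed FPKM of 8 megakaryocyte markers was 1.65 to 45.4 at 2 months and 963 to 1453 at 18 months, that of 8 macrophage markers 6.49 to 135 and 375 to 397, and that of 8 proliferation genes 4.83 to 97.8 and 337 to 356. B lymphocyte markers overlapped, at 1.18 to 114 and 76.3 to 89.7 FPKM, as did osteoclast markers, at 37.7 to 2469 and 972 to 1139 FPKM. The osteoclast list shares Mmp9 with the neutrophil list, so its sum is not from osteoclast genes alone. The summed FPKM of 8 osteoblast markers was lower at 18 months, at 1893 to 4305 and 900 to 928. Single genes of that list differed, with 4 (50.0%, against 21.3% of all genes) called lower and 0 higher in edgeR's test. Without 2-month replicate 2, 4 were called lower (50.0%, against 21.3%) and 2 higher (25.0%, against 23.3%). No erythroid, neutrophil or chondrocyte marker was at 0 in every library, and the part of each cell type in the levels of the enzymes was not tested.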

How the data were processed

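The authors deposited, per gene and library, unnormalized whole-number counts and FPKM values, scaled by transcript length and library total. The submitters' processing notes name cutadapt 1.9, HISAT2 2.0.4, UMI-tools, StringTie 1.3.4d, DESeq2 and edgeR without order. The build is not given in the sources used here, and 30925 of 33971 genes (91.0%) had identical coordinates in GENCODE M21. Libraries were poly(A)-selected and made to keep strand.

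All 6 libraries were used. Counts were tested with edgeR 4.0.16 in R 4.3.3 (TMM, filterByExpr, quasi-likelihood test), adjusted over 20397 genes. The SE is the log2 fold change over the square root of F. Ratios of FPKM, with 0.1 added, were tested by exact permutation with SciPy 1.17.1. Alternatives used DESeq2 1.42.0 and limma 3.58.1. The test scripts were checked on simulated data. The same-age libraries differed by more than sampling noise, the median chi-square being 6.32 to 48.7 times that expected, and were kept separate. The 8 genes, the lists and the rule for named genes (the largest called changes of each list, then the most abundant, and the 5 genes closest to Alas1 and Alas2) were chosen with earlier results of these data known. The use of globins as a denominator was added after seeing the data. Some genes of the lists and 1 ratio of the design are not reported here, and Slc4a1, planned as an alternative denominator, took that ratio's place.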

Additional observations from a re-analysis of the deposited data

How the results depend on the processing

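The 7 enzymes other than Alas2 kept their direction and call in all 15 alternatives to the count test. Alas2 kept its direction, and was called in DESeq2 (log2 fold change 3.77), limma on log2(FPKM + 0.1) (5.07), log2(FPKM + 1) (4.74) and log2(TPM + 0.1) (4.67), and without 2-month replicate 2. Leaving out each library in turn gave 3.16 to 6.18 for Alas2. Replicate numbers are shared between the ages, but same-numbered libraries did not deviate together (correlations 0.027, 0.039 and −0.016). With the replicate block Alas2 was called (5.15, adjusted p 0.0435) and no other of the 8 enzymes changed its call, while 6032 genes were called in place of 7401. The number of related genes called higher ranged from 15 to 40 when single libraries were left out, while calls over all genes ranged from 5640 to 9583. The difference in the ratio of Alas2 to Slc4a1 turned from −1.28 to 0.16 with globins in the denominator, and the cause was not tested. With 3 libraries an age, the ratios could not reach an exact p below 0.1, and the young libraries' spread limits what can be said of Alas2.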
